A study of Mus musculus with 2 samples.

Results

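The flow-responsive genes *Klf2*, *Klf4*, *Klf6*, *Nos3*, *Thbd*, *Edn1*, *Ece1* and *Piezo1* were followed through single PK44 cells of the E10.0 mouse yolk sac. They were chosen by name as genes tied to the response of endothelium to blood flow, and are 8 of the 23154 genes with a row in the count tables. All 8 had a count in both libraries. PK44 cells, sorted as CD31+, CD201+, Kit+ and CD44+ and free of CD41, CD43 and CD45, are hemogenic endothelial cells, the endothelial cells from which blood stem and progenitor cells arise. The mice were on a C57BL/6 background, and the labels name no treatment, mutation or other tissue for these cells. Cells in good condition were picked by hand and profiled by modified STRT-seq, which counts transcripts by unique molecular identifiers at their 3′ ends. Replicate 1 held 43 cells and replicate 2 held 44 cells, 87 in all. How many embryos were pooled for a library is not given in the sources used here.

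Blood flow pulls on the vessel wall, and this shear stress is sensed by endothelial cells through membrane proteins that include the channel Piezo1. A kinase cascade that ends at MEF2 transcription factors then switches on the Krüppel-like factors Klf2 and Klf4, which in turn raise the nitric oxide synthase Nos3 and the anticoagulant receptor thrombomodulin (Thbd) and lower the vasoconstrictor endothelin-1 (Edn1). In the embryo, the start of the heartbeat and nitric oxide are known to promote the emergence of blood stem cells, and Runx1 is the factor required for that emergence, whereas Gja5 (connexin 40) marks arterial endothelium.

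The bases just before the start site are shown for the members whose levels the results turn on, *Klf2*, *Klf4*, *Edn1* and *Ece1*, from RefSeq on GRCm38.p6. The table of start sites held 6 of the 8 members, all but *Nos3* and *Thbd*. Capitals mark the MEF2 consensus, the element named for the factors that act on *Klf2*, and CACCC or its reverse GGGTG, the letters that Klf proteins bind. Each line holds the 150 bases upstream of a RefSeq start, 5′ to 3′ on the strand of the gene, at chr8:72318912-72319061 (+) for *Klf2*, chr4:55532476-55532625 (-) for *Klf4*, chr13:42301326-42301475 (+) for *Edn1* and chr4:137862087-137862236 (+) for *Ece1*, the most upstream of its 4 listed starts.
Klf2: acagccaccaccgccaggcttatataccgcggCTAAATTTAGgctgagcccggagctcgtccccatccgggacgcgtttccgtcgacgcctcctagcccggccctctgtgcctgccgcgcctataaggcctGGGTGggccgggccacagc
Klf4: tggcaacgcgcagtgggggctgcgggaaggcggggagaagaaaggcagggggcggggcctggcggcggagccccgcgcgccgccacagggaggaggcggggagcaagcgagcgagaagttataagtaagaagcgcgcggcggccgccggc
Edn1: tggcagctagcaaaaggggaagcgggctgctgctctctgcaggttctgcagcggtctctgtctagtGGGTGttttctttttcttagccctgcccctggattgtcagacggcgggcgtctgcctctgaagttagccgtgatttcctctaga
Ece1: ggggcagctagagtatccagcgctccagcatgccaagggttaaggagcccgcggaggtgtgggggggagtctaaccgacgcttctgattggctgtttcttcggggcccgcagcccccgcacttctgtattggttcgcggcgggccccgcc
Of these windows, that of *Klf2* held a MEF2 match, from -118 to -109 of the start, and GGGTG from -19 to -15. That of *Edn1* held GGGTG from -84 to -80. In GENCODE the *Klf2* gene starts at 72319033, before the RefSeq start used here, so the last bases of its window, with GGGTG, lie inside the GENCODE gene. Another listed start of *Ece1*, not shown, held CACCC from -127 to -123 and from -122 to -118. Over the 32851 windows of the same length in the table, 1.67% held a MEF2 match and 37.4% held CACCC on either strand. These are matches of letters only, and the windows without capitals lack only these letters.

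The cells of replicate 1 held 8932527 counts together, between 13218 and 702028 each (median 141577). Those of replicate 2 held 12706360, between 51620 and 956593 each (median 238898.5). No barcode or cell name was shared by the libraries. The transcripts of the positive sort markers were present, *Pecam1* (CD31) in 42 of 43 and 44 of 44 cells, *Procr* (CD201) in 39 and 41, *Kit* in 34 and 32 and *Cd44* in 42 and 43. *Ptprc* (CD45) was found in 1 and 2 cells and *Spn* (CD43) in 5 and 4, while *Itga2b* (CD41), which the gate excludes as a protein, had a count in 23 and 33 cells and 10 or more counts in 7 and 12. All 12 endothelial markers had counts, at a summed level of 3393 and 5575 CPM, that is counts scaled to a common total. A few cells stood apart: 2 cells of replicate 1 and 1 of replicate 2 had 100 or more counts each of the matrix genes *Col1a1*, *Col1a2*, *Col3a1* and *Lum*. Levels below are CPM of the counts of a library or of a cell, which need no correction for gene length because each transcript is counted once. One count in a cell of median depth was worth 7.06 CPM in replicate 1 and 4.19 CPM in replicate 2. Pooled barcoded cDNA can place single counts in cells that do not express a gene. No cell type known to lack these genes was identified among the cells. *Lum* had a count in 29 and 26 cells, but 10 or more in 2 and 1. The share with 10 or more counts is therefore given beside the share with any.

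Among the Krüppel-like factors, *Klf6* was the most abundant member and *Klf4* reached 10 counts in a minority of cells. *Klf6* (chromosome 13, 5861482 to 5870394, + strand), a broadly expressed injury- and flow-induced factor, had a library level of 521 CPM in replicate 1 and 542 CPM in replicate 2, a mean of 531 ± 14.8 CPM (SD, n = 2 libraries). Its median per cell was 457 CPM in replicate 1 (0 to 5665) and 458 CPM in replicate 2 (15.4 to 1575), and a count was found in 41 of 43 and 44 of 44 cells, 10 or more in 32 and 40. Its level was thus nearly equal in the libraries and rather even over cells, the 3 highest cells holding 29.5% and 30.3% of its counts.

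*Klf2* (chromosome 8, 72319033 to 72321656, + strand), the flow-induced factor of quiescent endothelium, reached 220 and 345 CPM, with a mean of 282 ± 88.7 CPM (SD, n = 2). A count was found in 37 of 43 and 44 of 44 cells, and 10 or more counts in 20 (46.5%, exact 95% interval 31.2 to 62.3) and 32 (72.7%, 57.2 to 85.0). The levels per cell spread widely, from 0 through a median of 47.0 to 2651 CPM in replicate 1 and from 4.68 through 193 to 2419 CPM in replicate 2. In replicate 2, 12 of 44 cells had fewer than 10 counts while 26 were at 100 CPM or above. The 3 highest cells held 37.0% and 38.4% of all *Klf2* counts.

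*Klf4* (chromosome 4, 55527143 to 55532466, - strand), which shares many endothelial targets with Klf2, was lower and more restricted, at 43.997 and 68.9 CPM (56.5 ± 17.6 CPM, SD, n = 2). A count was found in 20 of 43 and 29 of 44 cells. In 8 of 43 (18.6%, exact 95% interval 8.39 to 33.4) and 12 of 44 cells (27.3%, 15.0 to 42.8) there were 10 or more, and the median cell was at 0 and 5.07 CPM. The highest cells were at 403 and 728 CPM, and 3 cells carried 51.7% and 52.4% of the counts. Of the cells with 10 or more *Klf4* counts, 5 of 8 and 9 of 12 also had 10 or more of both *Klf2* and *Klf6*. Among all cells, 20 of 43 and 32 of 44 had as many of *Klf2*, and 32 of 43 and 40 of 44 of *Klf6*.

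Of the targets that Klf2 and Klf4 are known to raise, *Nos3* and *Thbd* differed more between the libraries. *Nos3* (chromosome 5, 24364810 to 24384474, + strand), the endothelial nitric oxide synthase, was at 54.2 CPM and 112 CPM (83.0 ± 40.7 CPM, SD, n = 2). A count was found in 14 of 43 and 39 of 44 cells and 10 or more in 9 and 25, and the median cell was at 0 and 82.5 CPM, with highest cells of 839 and 436 CPM. Replicate 1 therefore held few *Nos3* cells with high levels, 3 of them carrying 61.4% of the counts, and replicate 2 many cells with moderate ones. After every cell was thinned to 20000 counts, *Nos3* was still detected in 9 of 42 cells of replicate 1 and 27 of 44 of replicate 2, so this contrast was present at equal depth. *Atg9b*, which overlaps *Nos3* on the opposite strand, was at 0 and 1.73 CPM, and the sources used here do not say whether counting used strand.

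*Thbd* (chromosome 2, 148404466 to 148408188, - strand), the receptor through which thrombin activates protein C, was the second lowest member at 28.8 and 63.7 CPM (46.2 ± 24.7 CPM, SD, n = 2). It had a count in 8 of 43 and 26 of 44 cells and 10 or more in 6 and 13, and the median cell was at 0 and 2.87 CPM with highest cells of 609 and 625 CPM. The 3 highest cells held 84.0% and 56.5% of its counts. *Procr*, the protein C receptor that was itself part of the sort as CD201, was at 235 and 165 CPM. Of the cells with 10 or more *Thbd* counts, 6 of 6 and 10 of 13 also had 10 or more of *Procr*. Among all cells, 25 of 43 and 32 of 44 had as many of *Procr*.

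The endothelin genes were split between a widespread enzyme and a restricted ligand. *Ece1* (chromosome 4, 137862237 to 137965229, + strand), the protease that cuts the endothelin precursor to its active form, was at 150 and 298 CPM (224 ± 105 CPM, SD, n = 2), with a count in 38 of 43 and 44 of 44 cells and 10 or more in 22 of 43 (51.2%, exact 95% interval 35.5 to 66.7) and 39 of 44 cells (88.6%, 75.4 to 96.2). Its median cell was at 86.3 CPM (0 to 950) in replicate 1 and at 317 CPM (19.8 to 1144) in replicate 2. *Edn1* (chromosome 13, 42301476 to 42307990, + strand), the ligand, was at 68.4 and 113 CPM (90.6 ± 31.4 CPM, SD, n = 2), but in replicate 1 a count was found in 11 of 43 cells and 10 or more in 4, and 3 cells held 92.3% of all *Edn1* counts, with one cell at 1380 CPM. In replicate 2, 41 of 44 cells had a count, 18 had 10 or more and the median cell was at 24.0 CPM, with the highest at 1589 CPM. Of the *Edn1* cells, 3 of 4 and 15 of 18 also had 10 or more counts of *Ece1*, beside 22 of 43 and 39 of 44 of all cells.

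*Piezo1* (chromosome 8, 122481698 to 122551329, - strand), the mechanosensitive cation channel, was close to the limit of detection. It had 1 count in 1 of 43 cells of replicate 1, and 96 counts in 10 of 44 cells of replicate 2, of which 2 cells had 10 or more and the 3 highest carried 86.5%. The library levels were 0.11 and 7.56 CPM. *Ctu2*, which overlaps it on the opposite strand, was at 25.3 and 20.5 CPM. A member this sparse allows little to be said about its relation to other genes.

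**Figure D1:**
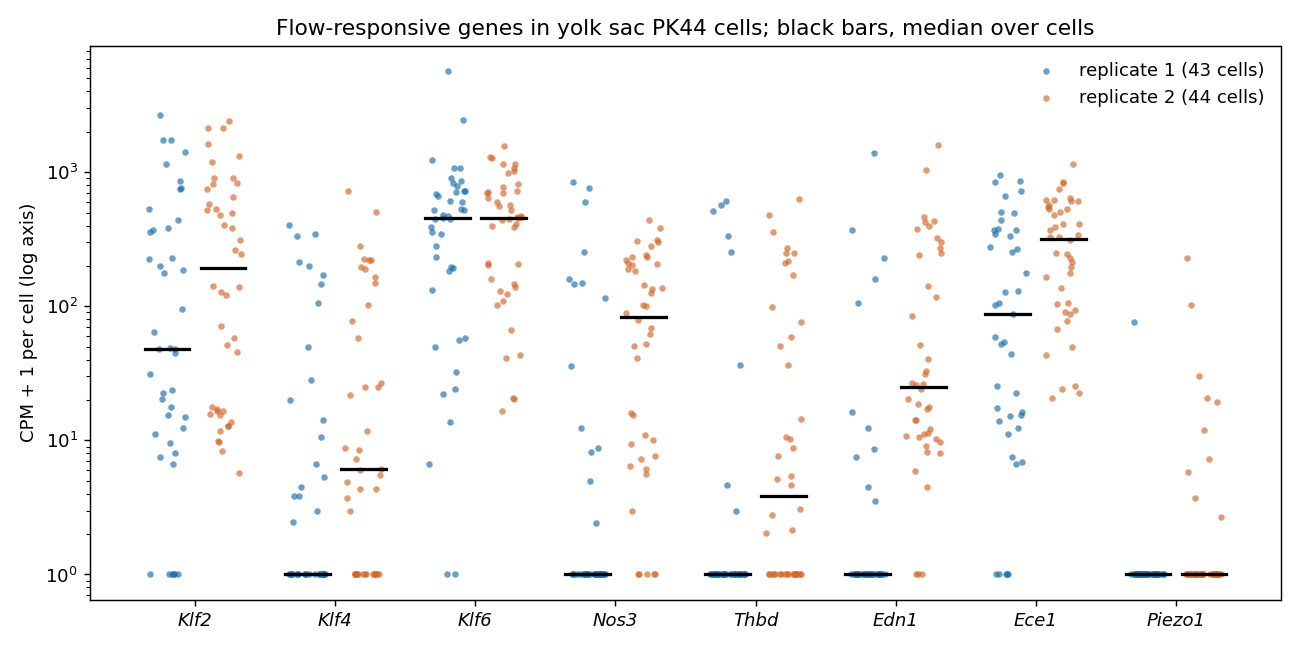
Level of each flow-responsive gene in each cell, as CPM + 1 on a log axis, with 1 point per cell, 43 cells of replicate 1 in blue and 44 of replicate 2 in orange, and black bars at the median over cells. *Klf6* has medians of 457 and 458 CPM in the libraries. Most cells of replicate 1 lie at 0 for *Klf4*, *Nos3*, *Thbd*, *Edn1* and *Piezo1*.

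Ordered by mean library level, the members ran *Klf6*, *Klf2*, *Ece1*, *Edn1*, *Nos3*, *Klf4*, *Thbd* and *Piezo1*. With 2 libraries, neighbours in this order were separated where the library ranges did not overlap, which held for *Klf6* above *Klf2*, *Ece1* above *Edn1* and *Thbd* above *Piezo1*. The ranges of *Klf2* and *Ece1* overlapped, as did those of *Edn1* and *Nos3*, *Nos3* and *Klf4*, and *Klf4* and *Thbd*, although the order was the same within each library. Every member was higher in replicate 2, by ratios from 1.04 for *Klf6* to 2.21 for *Thbd*, leaving out *Piezo1* with its single count in replicate 1. How many of all genes were higher in replicate 2 was not counted. The endothelial markers *Pecam1*, *Cdh5* and *Kdr* had ratios of 2.12, 1.37 and 1.45, *Gja5* one of 4.86 and *Runx1* one of 0.45. The libraries carry the same labels, so the ratios of the members describe the spread between them. Cells of replicate 2 also had more members with 10 or more counts, a median of 4 of 8 (range 1 to 6) against 2 (0 to 6), and 19 against 4 cells had 5 or more members. A fixed count favours the deeper library, and with cells thinned to 20000 counts, leaving out 1 shallower cell of replicate 1, the median number of members with a count was 4 (range 0 to 7) in replicate 2 and 3 (0 to 6) in replicate 1.

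No single block of co-expressed members was seen over cells. In replicate 1 the 28 pairs of members had a median Spearman rho of CPM of -0.01 over 43 cells (range -0.23 to 0.34), beside a median of 0.08 over all pairs of 3661 well-detected genes. In replicate 2 the median was 0.13 over 44 cells (range -0.11 to 0.44), beside 0.03. A rho above 0.3 was reached by 1 of 28 pairs in replicate 1 (8.53% of all gene pairs) and by 5 of 28 in replicate 2 (5.33% of all gene pairs), and by none of the 28 in both. A positive rho in both libraries was found for 14 of 28 pairs, against 39.5% of all gene pairs. Of the members, only *Klf2*, *Klf6* and *Ece1* are themselves among the well-detected genes. The comparison with all gene pairs is therefore not matched for sparse counts. These are descriptions over cells that share a library and differ in depth, not over independent samples.

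*Klf2* and *Klf4*, the regulator pair, had a rho of 0.01 in replicate 1 and 0.28 in replicate 2. *Klf2* and its target *Nos3* had -0.07 and 0.32. Of the cells with 10 or more *Klf2* counts, 5 of 20 and 20 of 32 had as many of *Nos3*, beside 9 of 43 and 25 of 44 of all cells. *Klf2* and *Thbd* had -0.04 and 0.03. On counts thinned to equal depth, *Klf2* and *Nos3* had 0.00 and 0.12. Given the depth of the cell (partial rho), they had -0.05 and 0.33. The value in replicate 2 thus depended on how depth was treated.

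*Klf2* and *Edn1*, a gene that Klf2 is known to lower in cultured endothelium, had a rho of 0.05 and 0.37, and *Klf2* and *Ece1* one of 0.34 and 0.18. *Nos3* and *Edn1*, whose products relax and constrict vessels, had 0.22 and 0.35. *Nos3* and *Ece1* had 0.18 and 0.13, and *Edn1* and *Ece1* 0.16 and 0.26. On thinned counts some values in replicate 2 were lower, 0.05 for *Nos3* and *Edn1*, 0.05 for *Klf2* and *Ece1* and 0.24 for *Klf2* and *Edn1*. Given the depth of the cell, the same pairs had 0.34, 0.08 and 0.33 in replicate 2. In replicate 1 their thinned values were 0.32, 0.32 and 0.17. *Piezo1* and *Nos3* had 0.44 in replicate 2, on 10 cells with *Piezo1* counts, and -0.10 in replicate 1, on 1 cell.

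*Klf2* went with depth in replicate 2, with a rho of -0.45 with the total count of the cell (-0.11 in replicate 1), where the median over all genes compared was 0.11 (0.24). The summed level of 19 immediate early and dissociation genes had a rho of 0.22 and 0.34 with *Klf2*, 0.08 and 0.30 with *Klf4* and 0.39 and 0.31 with *Klf6*, whereas with *Nos3* it was 0.07 and 0.05 and over all genes compared -0.04 and -0.06. Of single genes of that list, *Fos* had 0.14 and 0.49 with *Klf2* and *Dusp1* had 0.03 and 0.45, while *Jun* had 0.08 and -0.01, *Egr1* -0.04 and 0.07 and *Atf3* 0.27 and 0.08. The list was high in these cells, at a summed 7142 and 6874 CPM, and its part in the levels of the Klf genes was not tested.

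The summed endothelial markers had a rho of 0.03 and 0.47 with *Klf2*, 0.22 and 0.45 with *Ece1* and 0.29 and 0.26 with *Edn1*, beside -0.14 and -0.10 for all genes compared. Among 3660 or more genes, those nearest to *Klf2* by the mean rho of both libraries were *Krit1* (0.61 and 0.26), *Anxa2* (0.38 and 0.44), *Zc3h7a* (0.60 and 0.20), *Slc38a2* (0.23 and 0.55) and *Tuba1a* (0.40 and 0.37). The nearest to *Klf4* were *Nes* (0.52 and 0.38), *Clint1*, *Kdm1a*, *Ube2w* and *H3f3a*, with means of 0.38 to 0.45. The nearest to *Nos3* were *Hdac7* (0.32 and 0.47), *Emc7*, *Rab18*, *Psmd6* and *Rapgef1*, with means of 0.36 to 0.40. No member was among these nearest genes, but of the members only *Klf2*, *Klf6* and *Ece1* could appear. The others had counts in too few cells of replicate 1 to be among the genes compared.

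**Figure D2:**
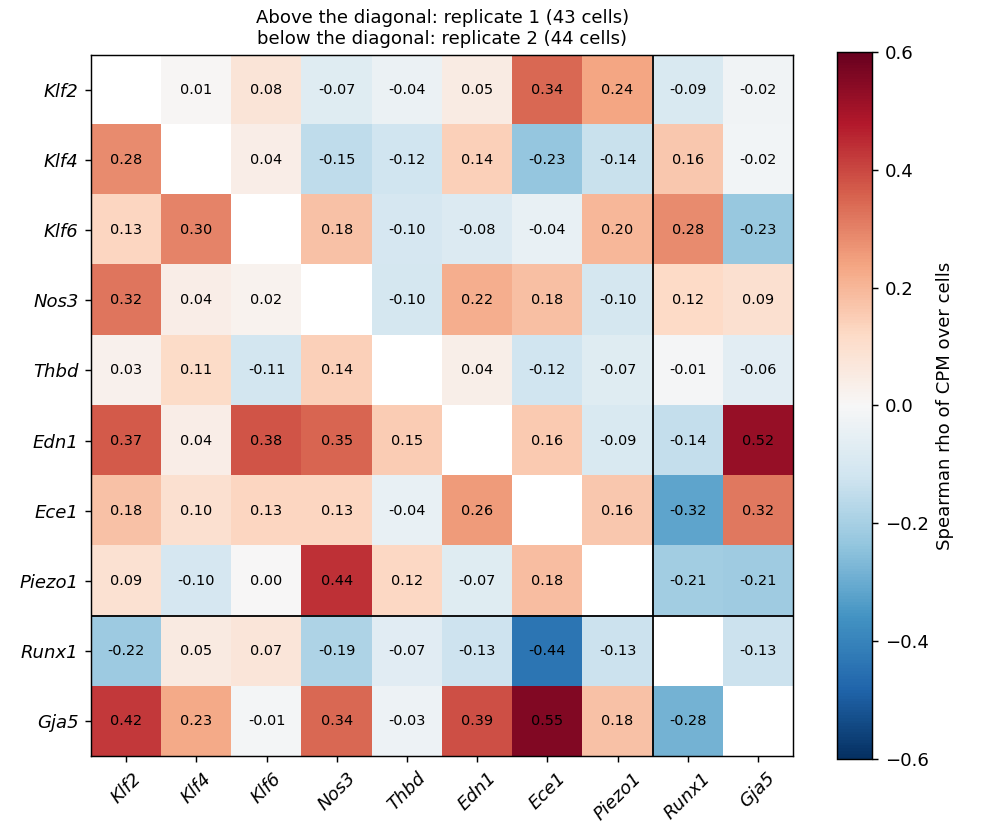
Spearman rho of CPM over cells for each pair of the 8 flow-responsive genes, *Runx1* and *Gja5*, replicate 1 (43 cells) above the diagonal and replicate 2 (44 cells) below it, with the colour scale from -0.6 to 0.6. By the mean of both libraries, the highest values are those of *Gja5* with *Edn1* (0.52 and 0.39) and with *Ece1* (0.32 and 0.55), while *Ece1* and *Runx1* have -0.32 and -0.44.

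The relation to *Gja5* separated the members. *Gja5* itself reached 126 CPM in the first library and 615 CPM in the second. *Edn1* had a rho with *Gja5* of 0.52 and 0.39 and *Ece1* one of 0.32 and 0.55, both positive in both libraries and, given the depth of the cell, 0.49 and 0.37 and 0.36 and 0.53. *Klf2* had -0.02 and 0.42 and *Nos3* 0.09 and 0.34, positive mainly in replicate 2. *Klf4* (-0.02 and 0.23), *Thbd* (-0.06 and -0.03), *Klf6* (-0.23 and -0.01) and *Piezo1* (-0.21 and 0.18) showed no positive relation in both.

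Cells were then divided at the library median of *Gja5*, and the counts of the cells above it (Gja5-high, 21 and 22 cells) and of the others (Gja5-low, 22 and 22) were summed per library into 4 sums. The median depth was 161402 and 140016.5 counts per cell in Gja5-high and Gja5-low cells of replicate 1, and 230499 and 246822 in replicate 2. In replicate 1, Gja5-high began at 10.6 CPM and Gja5-low ended at 10.01 CPM, so the groups met at the median. In replicate 2, Gja5-high began at 148 and reached 3837 CPM, and Gja5-low ended at 146 CPM. Of the Gja5-high cells, 10 of 21 and 22 of 22 had 10 or more *Gja5* counts, and of the Gja5-low cells 0 of 22 and 14 of 22. The median Gja5-high cell of replicate 1, at 58.3 CPM, lay within the Gja5-low range of replicate 2, 18.6 to 146 CPM.

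*Edn1* had the largest fold change of the members between these groups, while by rho *Ece1* was the higher of both on thinned counts (0.48 and 0.51, against 0.47 and 0.32 for *Edn1*). In replicate 1 it had 608 counts in Gja5-high and 3 in Gja5-low cells, or 136 and 0.67 CPM, a ratio of 201 with an exact 95% interval of 68.4 to 977 that covers counting error only. A single cell held 66.1% of the 608 counts, and 4 of 21 Gja5-high and 0 of 22 Gja5-low cells had 10 or more. In replicate 2, *Edn1* was at 187 CPM in Gja5-high and 41.1 CPM in Gja5-low cells, with 10 or more counts in 13 of 22 and 5 of 22 cells and a median cell of 77.6 and 14.7 CPM. The direction was thus shared by the libraries, but its size in replicate 1 rests on few cells. Between the 4 sums the log2 fold change was 2.96 ± 1.27 (SE), which did not pass (adjusted p = 1.00, edgeR quasi-likelihood test, Benjamini-Hochberg). With the library as a block it was 4.28 ± 0.84 and passed (adjusted p = 0.0062, same test).

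*Ece1* was at 219 and 79.6 CPM in Gja5-high and Gja5-low cells of replicate 1, and at 410 and 190 CPM in replicate 2. Here the spread lay over many cells, as the median cell was at 175 against 18.9 CPM and at 457 against 97.8 CPM. All 22 Gja5-high cells of replicate 2 had 10 or more counts, from 104 to 1144 CPM, although their range overlapped that of Gja5-low cells, 19.8 to 850 CPM. The log2 fold change was 1.22 ± 0.52 (adjusted p = 1.00, edgeR quasi-likelihood test), and 1.27 ± 0.32 (adjusted p = 0.053) under the library block, just short of the threshold. When the highest and lowest 14 cells of each library were compared with the block, it passed (log2 fold change 1.57, adjusted p = 0.036), and with thinned sums and without the collagen-rich cells it did not (adjusted p = 0.080 and 0.069 with the block).

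*Nos3* was at 70.7 and 37.5 CPM in Gja5-high and Gja5-low cells of replicate 1 and at 172 and 53.6 CPM in replicate 2, a log2 fold change of 1.40 ± 0.60 that was 0.58 with thinned sums. *Klf2* was at 294 and 145 CPM and at 448 and 246 CPM, a log2 fold change of 0.92 ± 0.42, and 21 of 22 Gja5-high cells of replicate 2 had 10 or more counts against 11 of 22. Neither passed in this fit or under the library block, where the adjusted p were 0.48 and 0.18 by edgeR's quasi-likelihood test. *Klf4* (log2 fold change 0.28), *Thbd* (0.40) and *Klf6* (0.11) lay near 0, with *Klf6* at 540 and 501 CPM and at 567 and 517 CPM. *Piezo1* had at most 1 count in each sum of replicate 1, and was at 10.9 and 4.32 CPM in replicate 2.

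All 8 members had a log2 fold change above 0 in this fit, with a median of 1.07 beside 0.00 over all 10653 genes tested, and none passed at an adjusted p under 0.05, where 0.0% of genes were called by edgeR's quasi-likelihood test. At an unadjusted p under 0.05 there were 3 members and 433 genes. Under the library block, which pairs the sums of a library, 7 of 8 were above 0 with a median of 0.62, and 1 of 8 (*Edn1*) passed where 0.882% of genes were called, 94 in all and 85 of them higher in Gja5-high cells. DESeq2 called 0 of 8 members and 0.771% of genes, with 4 members and 895 genes at an unadjusted p under 0.05. Without the filter on low counts, edgeR's quasi-likelihood test called *Edn1* (adjusted p = 0.0014) and 0.379% of genes. *Edn1* also passed with the block after each cell was thinned to 20000 counts (adjusted p = 2.21e-04) and without the collagen-rich cells (adjusted p = 0.0018), both by edgeR's quasi-likelihood test. All 12 endothelial markers had a log2 fold change above 0 in Gja5-high cells, with a median of 0.73, at summed levels of 4602 against 2173 CPM and of 6403 against 4778 CPM. The 7 mesenchymal markers tested were also all above 0 (median 1.44). Their summed level in the median cell was 48.7 against 60.3 CPM in replicate 1 and 29.8 against 22.9 CPM in replicate 2. The highest Gja5-high cells were at 16751 and 20850 CPM, and the highest Gja5-low cells at 22967 and 86.4 CPM. The summed macrophage and myeloid markers were at 332 against 234 CPM in replicate 1 and at 148 against 527 CPM in replicate 2. Of this list, *C1qa*, *C1qb*, *C1qc* and *Cx3cr1* were at 0. Over all cells, *Mrc1* had a count in 29 and 42 cells, *Fcer1g* in 19 and 30 and *Lyz2* in 23 and 11. *Tyrobp* had one in 18 and 11 cells, *Csf1r* in 3 and 1 and *Ptprc* in 1 and 2. The part of the endothelial and myeloid markers in the *Edn1* difference was not tested. For the mesenchymal markers, only the fits without the collagen-rich cells were run. Those cells had 0 and 0 *Edn1* counts in replicate 1, and the 1 cell of replicate 2 had 2.

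**Figure D3:**
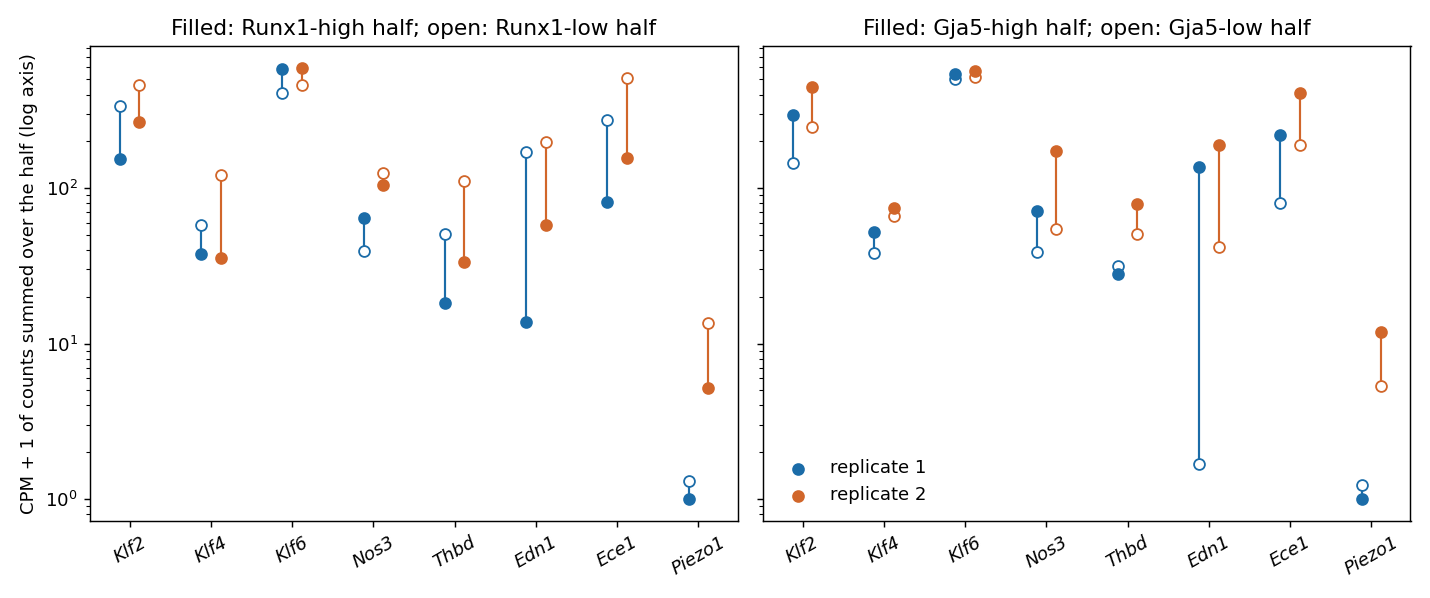
CPM + 1, on a log axis, of the counts summed over the Runx1-high (filled) and Runx1-low (open) cells on the left and the Gja5-high (filled) and Gja5-low (open) cells on the right, per gene and library, with a line joining both sums of a library. *Edn1* and *Ece1* lie lower in Runx1-high cells and higher in Gja5-high cells in both libraries, whereas *Klf6* differs little.

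*Runx1*, at 300.4 CPM in the first library and 136 CPM in the second, ran the other way. *Ece1* had a rho with *Runx1* of -0.32 and -0.44, and -0.29 and -0.39 given the depth of the cell. *Klf2* had -0.09 and -0.22, and -0.06 and -0.07 given depth, and *Edn1* had -0.14 and -0.13. *Klf6* had 0.28 and 0.07 and *Klf4* 0.16 and 0.05, beside a median of 0.12 and 0.11 over all genes compared, and on thinned counts *Klf6* had 0.29 and -0.01 and *Klf4* -0.09 and -0.13. *Nos3* (0.12 and -0.19) changed sign. *Runx1* and *Gja5* themselves had -0.13 and -0.28, so both divisions of the cells are linked.

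At the library median of *Runx1*, the cells fell into 21 Runx1-high and 22 Runx1-low cells in replicate 1 and 22 and 22 in replicate 2. In replicate 1, Runx1-high began at 52.7 CPM and Runx1-low ended at 52.2 CPM. In replicate 2 these limits were lower, 11.2 and 8.85 CPM, and the lowest Runx1-high cell had 1 *Runx1* count. Of the Runx1-high cells, 20 of 21 and 17 of 22 had 10 or more *Runx1* counts, and of the Runx1-low cells 2 of 22 and 0 of 22. Runx1-high cells were deeper, with medians of 260240 against 95376 counts per cell in replicate 1 and 271733.5 against 213444 in replicate 2. All 3 collagen-rich cells were Runx1-low: the summed level of 8 mesenchymal markers reached 289 and 110 CPM at most in a Runx1-high cell and 22967 and 20850 CPM in a Runx1-low cell.

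*Ece1* was at 80.9 CPM in Runx1-high and 274 CPM in Runx1-low cells of replicate 1, and at 154 and 511 CPM in replicate 2. The median cell was at 24.4 against 303 CPM and at 150 against 515 CPM, and 10 or more counts were found in 8 of 21 against 14 of 22 and in 19 of 22 against 20 of 22 cells. *Ece1* was therefore lower in Runx1-high cells by a like factor in both libraries and over many cells. Its log2 fold change was -1.76 ± 0.50 (adjusted p = 0.72, edgeR quasi-likelihood test), and -1.78 ± 0.39 (adjusted p = 0.0011) under the library block.

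*Edn1* was at 12.8 and 169 CPM in Runx1-high and Runx1-low cells of replicate 1, where 2 and 2 cells had 10 or more counts and 1 Runx1-low cell held 74.9% of the Runx1-low counts. In replicate 2 it was at 56.9 and 196 CPM, with 10 or more counts in 8 of 22 and 10 of 22 cells and a median cell of 20.5 and 38.1 CPM. The difference thus lay more in a few high Runx1-low cells than in the number of cells. The log2 fold change was -2.42 ± 0.72 (adjusted p = 0.72, edgeR quasi-likelihood test), and -2.76 ± 0.58 (adjusted p = 5.66e-04) under the library block.

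*Klf2* was at 154 and 339 CPM in Runx1-high and Runx1-low cells of replicate 1 and at 266 and 462 CPM in replicate 2, a log2 fold change of -0.96 ± 0.43 that did not pass (adjusted p = 0.88, and 0.19 under the block, edgeR quasi-likelihood test). In replicate 1 the median cells were nearly alike, 47.6 and 46.9 CPM, and in replicate 2 they were apart, 88.4 and 440 CPM. *Klf4* was at 36.8 and 57.0 CPM and at 34.7 and 120 CPM (log2 fold change -1.33), and *Thbd* at 17.2 and 49.8 CPM and at 32.4 and 110 CPM (-1.71), neither past the threshold. *Klf6* pointed upward, at 583 and 409 CPM and at 596 and 461 CPM (0.41). *Nos3* had no common direction, at 62.9 and 38.5 CPM and at 104 and 124 CPM (0.02).

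Of the 8 members, 6 were lower in Runx1-high cells, with a median log2 fold change of -1.47 beside -0.01 over all 10629 genes tested. None passed in this fit, where edgeR's quasi-likelihood test called 0.00941% of genes, namely *Col1a1*, and 2 members and 588 genes were at an unadjusted p under 0.05. Under the library block 2 of 8 (*Edn1* and *Ece1*) passed where 1.56% of genes were called, 166 in all and 126 of them lower. DESeq2 called both members (adjusted p = 0.044 and 0.036) and 1.42% of genes, and edgeR without the low-count filter called *Edn1* (adjusted p = 0.024), not *Ece1* (0.055), and 0.507% of genes.

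Both calls under the block held without the collagen-rich cells, with log2 fold changes of -2.84 for *Edn1* and -1.78 for *Ece1* and adjusted p of 8.00e-04 and 0.0034 by edgeR's quasi-likelihood test. They were lost when every cell was thinned to 20000 counts (log2 fold changes of -1.95 and -1.72, adjusted p = 0.36 and 0.25 by the same test with the block), and when the highest and lowest 14 cells of each library were compared (log2 fold changes of -2.98 and -1.67, adjusted p = 0.089 and 0.053). The folds of *Ece1* thus changed little in both settings. The 12 endothelial markers all had log2 fold changes below 0, with a median of -0.78, at summed levels of 2497 against 5019 CPM and of 4248 against 7552 CPM in Runx1-high and Runx1-low cells, and their part in the member differences was not tested. The immediate early list had medians of -0.09 here and 0.16 between Gja5-high and Gja5-low cells.

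**Figure D4:**
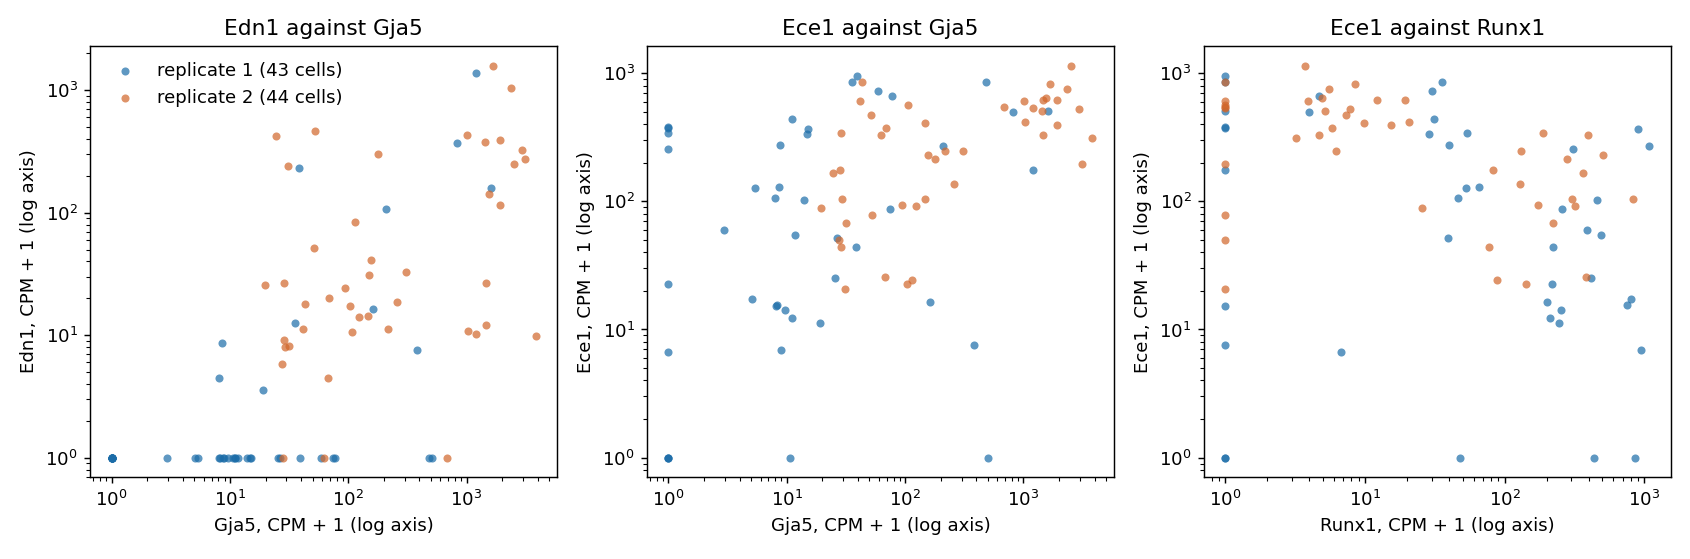
*Edn1* against *Gja5*, *Ece1* against *Gja5* and *Ece1* against *Runx1*, each as CPM + 1 on log axes with 1 point per cell (43 cells of replicate 1 in blue, 44 of replicate 2 in orange). The rho of CPM is 0.52 and 0.39, 0.32 and 0.55, and -0.32 and -0.44 in replicates 1 and 2, and many cells of replicate 1 lie at 0 for *Edn1*.

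Other genes of the flow response were taken from a list of 110, of which 84 could be tested between Runx1-high and Runx1-low cells and 82 between Gja5-high and Gja5-low cells. None passed in either fit without the block, and their median log2 fold changes were -0.44 and 0.27, beside -0.01 and 0.00 over all genes tested. Under the library block, 0 of 84 were higher and 5 lower in Runx1-high cells by edgeR's quasi-likelihood test, where 1.56% of all genes were called, and none of the 5 passed with thinned sums and block. These were *Ddah1*, which breaks down an inhibitor of nitric oxide synthases (52.6 against 332 CPM and 54.3 against 275 CPM, log2 fold change -2.53), the VEGF receptor gene *Kdr* (-1.61), *Vwf*, which encodes the clotting protein von Willebrand factor (219 against 318 CPM and 162 against 768 CPM, -1.43), the angiopoietin receptor gene *Tek* (-1.20) and *Cdh5*, the endothelial cadherin (-1.20). Of these, *Kdr*, *Tek* and *Cdh5* are also on the endothelial marker list.

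Between Gja5-high and Gja5-low cells, 4 of 82 were higher and 0 lower under the block by the same test, where 0.882% of all genes were called. With thinned sums, *Cdh5* no longer passed (adjusted p = 0.29, edgeR with the block). *Cav1*, the caveolin of flow-sensing membrane pits, was at 140 and 6.97 CPM in replicate 1 and at 187 and 16.7 CPM in replicate 2 (log2 fold change 3.88). *Vwf* (3.05), *Cyr61*, a target of the mechanically regulated factors Yap and Taz (2.75), and *Cdh5* (1.12) were the others. *Vwf* was at 453 against 53.5 CPM and at 733 against 88.7 CPM, a contrast of like size in both libraries, whereas *Cyr61* was at 186 against 8.54 CPM and at 251 against 107 CPM, a smaller one in replicate 2.

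By role, the flow sensors had 17 tested members with a median log2 fold change of -0.83 in Runx1-high and 0.67 in Gja5-high cells. Of these, *Pecam1*, *Cdh5*, *Kdr* and *Flt1* are also on the endothelial marker list, whose medians were -0.78 and 0.73. The Yap and Taz genes, factors and targets together, had 7 tested members with -1.04 and 1.15. The clotting and protein C genes had 7 with -0.69 and 0.87. The signalling genes upstream of the Klf factors, 16 tested, had 0.00 and 0.09 and the nitric oxide genes -0.08 and -0.04, close to the medians of all genes. The other Klf family genes had 0.36 and 0.25 over 9 tested members, and the other flow targets -0.46 and 0.05. The 2 testable genes of the endothelin system had medians of 0.87 and -1.02. Of the 6 listed, *Ece2* was at 55.0 and 40.6 CPM, the receptor gene *Ednrb* at 13.9 and 46.1 CPM and *Edn3* at 2.13 and 0 CPM. The receptor gene *Ednra* was at 2.02 and 0.08 CPM, with a count in 1 cell of each library. *Mme* and the ligand gene *Edn2* had no count in either library. These genes were named after their values were seen.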

How the data were processed

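The data are 2 libraries of E10.0 yolk sac PK44 cells. The authors split reads by cell barcode, trimmed them, aligned them to the mm10 transcriptome with HISAT2 2.1.0, counted unique reads with HTSeq, removed duplicates by UMI and filtered cells on genes, transcripts and reads. The deposited values are these counts per gene and cell, not normalized. Whether counting used strand is not given in the sources used here.

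All 87 cells were kept and no doublet caller was run. CPM, shares of cells (with exact 95% intervals by Clopper-Pearson, for counting error alone) and Spearman correlations were computed per library (scipy 1.17.1, numpy 2.4.6 and pandas 2.3.3 under Python 3.11.15). Nearest genes were taken among the well-detected genes by the mean rho of both libraries. Cells were divided at the library median CPM of *Runx1* or *Gja5*, counts were summed per library and group, and the 4 sums were tested with edgeR 4.0.16 in R 4.3.3 by the quasi-likelihood test, after filterByExpr and TMM, at a Benjamini-Hochberg adjusted p of 0.05 over all genes tested. Cells of a library are not independent replicates, and the labels do not say whether the libraries came from separate litters, so p-values measure only the spread between these sums. The fit had no library block. The number pairs the sums because sums with the same number come from the same library, and their deviations from the group means correlated at 0.20 across 10630 genes (*Runx1*) and 10654 genes (*Gja5*). The fit with the block was therefore printed beside the first wherever it changed a call. DESeq2 1.42.0, its size factors, no low-count filter, other divisions of the cells, cells thinned to 20000 counts, removal of 3 collagen-rich cells and removal of each library were alternatives. The highest against the lowest 14 cells, thinned sums or removal of the collagen-rich cells, each together with the block, were chosen after seeing the data. The tests were tried on simulated data.

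The members, the lists of flow pathway genes and cell type markers and the tests were chosen with earlier results of these data known. Named genes were the 8 members, *Runx1* and *Gja5*, the 5 nearest genes of *Klf2*, *Klf4* and *Nos3*, up to 10 pathway genes that passed, *Fos*, *Jun*, *Egr1*, *Atf3*, *Dusp1*, *Pecam1*, *Cdh5* and *Kdr*. Genes of the sort and others named as such were added later. Of the macrophage and myeloid list, 6 of 10 genes had counts, at 283 and 341 CPM summed. *C1qa*, *C1qb*, *C1qc* and *Cx3cr1* were at 0, whereas *Mrc1* was at 125 and 162 CPM, in 29 and 42 cells. *Fcer1g* was at 65.6 and 127 CPM, in 19 and 30 cells. The erythroid, megakaryocyte and visceral endoderm lists were low. Counts were found for 4 and 5 of 10 erythroid genes (19.0 and 34.7 CPM) and 4 of 7 megakaryocyte genes (70.0 and 96.3 CPM). Of 7 visceral endoderm genes, 0 and 3 had counts (0 and 16.4 CPM). Gene positions are from GENCODE M21 on GRCm38 (mm10), and upstream sequences from RefSeq on GRCm38.p6.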

Additional observations from a re-analysis of the deposited data

How the results depend on the processing

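Counts of genes called depended on the fit. For *Runx1* the count was 1 without a block and 166 with the replicate block, 140 with DESeq2, 67 without the low-count filter, 3 with thinned sums, and 0 with the highest against the lowest 14 cells, with cells divided on thinned counts, and without the collagen-rich cells. With the block it was 114 for the 14 highest and lowest cells, 4 for thinned sums and 149 without the collagen-rich cells. For *Gja5* it was 0 without a block, 94 with the replicate block, 88 with DESeq2, 50 without the low-count filter, and with the block 166, 75 and 104 under the same 3 changes. Beyond the member calls given with the results, *Edn1* passed for *Gja5* with the 14 highest and lowest cells and block (adjusted p = 1.15e-05 by edgeR's quasi-likelihood test), and the block changed no other member call. Leaving out a library leaves 1 sum against 1 and gave fold changes but no test. Directions reversed for members near 0 or with few counts. *Nos3* between Runx1-high and Runx1-low cells (log2 fold change 0.02) was -0.0091 with DESeq2 and with its size factors, -0.26 without replicate 1, 0.65 without replicate 2, -0.0724 with the 14 highest and lowest cells, -0.16 with cells divided on thinned counts, -0.25 with thinned sums, -0.0238 without the collagen-rich cells and -0.29 with thinned sums and block. Between Gja5-high and Gja5-low cells, *Klf4* was -0.36 with thinned sums and -0.32 with the block as well, *Klf6* was -0.13 with the 14 highest and lowest cells, with and without the block (-0.132 and -0.1308), *Thbd* was -0.19 without replicate 2, 0.67 without replicate 1, -0.44 with thinned sums, -0.40 with thinned sums and block and -0.0178 with the 14 highest and lowest cells and block, and *Piezo1* was -0.0141 with the block, -0.70 without replicate 2 and 1.27 without replicate 1. Levels moved by more than the spread of the libraries for 2 of 8 members as the mean over cells (*Klf2* 407 CPM) and 3 with thinned cells (*Edn1* 132 CPM). With thinned counts 30 correlations moved and 49 did not, and given depth 7 moved and 81 did not. With a single condition, sparse counts in replicate 1 and 2 libraries, small differences were not detectable.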
